A study of Rattus norvegicus with 79 samples.

Results

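CA1 neurons are the output cells of the hippocampus. Hpca, Cabp1 and Calb1 are genes for calcium sensors or buffers of these cells, and Pcp4 is a gene for a protein that acts on calmodulin. They are 4 of the 4737 genes named by a single symbol on the array, and were taken as every probe set whose symbol is 1 of these 4, which gave 5 of 8799 probe sets: 1 each for Hpca, Pcp4 and Calb1, and 2 for Cabp1. All 5 lay among the 5244 probe sets tested, but the second Cabp1 probe set had a mean signal of 117.9, just above the lowest mean kept, 116.9. The genes were chosen with knowledge from earlier results of these data, and which values were known is not stated. The age difference of Pcp4 and the difference of Hpca between learning-impaired and unimpaired rats were taken to be among them. These 2 values are given below as descriptions with no test.

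Calcium entering a CA1 pyramidal cell through glutamate receptors and voltage-gated channels is bound within the cell by proteins with EF-hand loops, some of which change shape and pass the signal on (sensors) while others mainly hold the ion (buffers). Hippocalcin, the product of Hpca, is a sensor that moves to membranes when calcium rises and acts on the slow afterhyperpolarization and on receptor trafficking. CaBP1, made from Cabp1, is a neuronal relative of calmodulin that binds calcium channels and inositol trisphosphate receptors in its place, Pcp4 (PEP-19) is a small protein that speeds the exchange of calcium on calmodulin, and Calb1 encodes calbindin-D28k, a fast buffer found in part of the CA1 pyramidal cells, in dentate granule cells and in some interneurons.

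The animals were male Fisher-344 rats, 24 months old (aged) or 3 months old (young), with 1 array per animal and no pooling. Per the labels they were killed 24 hours after the last behavioural trial, in a water maze for all but the cage controls, and RNA of the CA1 cell layer, taken with a micro punch, went through 2 rounds of amplification. Aged rats trained to a hidden platform fell into 10 impaired in learning, 13 unimpaired and 16 that carry the letter B in their titles, which the labels do not explain. A further 8 aged rats were trained to a visible platform, 8 swam as yoked controls with no platform and 5 stayed in their cages. The young rats were 6 hidden platform, 4 visible platform, 6 yoked and 3 cage control animals.

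The values are array intensities, so the number of arrays per group, and not a read depth, limits the precision. The median Spearman correlation of an array with the other arrays lay between 0.223 and 0.940, and it was under 0.85 on 14 arrays, called arrays of low correlation below. They were 2 impaired, 1 unimpaired, 4 aged visible, 1 aged yoked, 1 aged cage, 1 young hidden, 2 young visible and 2 young cage arrays. None was a B or a young yoked array. The CA1 markers Nrgn, Gria1 and Pou3f1 had mean signals of 17653, 5124 and 2188, while Camk2a and Slc17a7, at 110.1 and 36.7, lay below the filter. Differences are of log2(signal + 15), a value after ± is the standard error unless SD is written, and adjusted p is from limma with Benjamini-Hochberg adjustment over 5244 probe sets, two-sided, with 0.05 as the threshold. In a tissue punch, fewer cells that make a transcript and less of it per cell cannot be told apart.

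The promoter windows of Cabp1 and Pcp4 are shown because Cabp1 passed the threshold for age, higher in aged rats, and Pcp4 had the largest difference in the other direction, which is a description. Each window runs from 250 bases before to 50 bases after a start site in RefSeq (build GRCr8), with capitals for the CCAAT box (CCAAT, or ATTGG on the other strand) and the GC box (GGGCGG, or CCGCCC). Cabp1 has 2 annotated start sites on the plus strand of chromosome 12, at chr12:47085042-47085341 and chr12:47093669-47093968, and the Pcp4 window is at chr11:49269936-49270235, plus strand.
Cabp1, first start site: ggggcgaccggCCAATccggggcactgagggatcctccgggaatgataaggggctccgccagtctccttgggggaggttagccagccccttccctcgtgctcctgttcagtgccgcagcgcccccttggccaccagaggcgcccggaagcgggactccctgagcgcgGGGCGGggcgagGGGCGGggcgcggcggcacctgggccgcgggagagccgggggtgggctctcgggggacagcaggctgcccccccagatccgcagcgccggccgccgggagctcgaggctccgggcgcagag
Cabp1, second start site: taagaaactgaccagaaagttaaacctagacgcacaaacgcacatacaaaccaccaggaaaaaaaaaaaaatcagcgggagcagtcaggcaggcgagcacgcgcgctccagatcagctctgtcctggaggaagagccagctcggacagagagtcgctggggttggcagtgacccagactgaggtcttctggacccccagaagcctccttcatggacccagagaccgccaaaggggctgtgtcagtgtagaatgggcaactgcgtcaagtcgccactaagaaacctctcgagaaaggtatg
Pcp4: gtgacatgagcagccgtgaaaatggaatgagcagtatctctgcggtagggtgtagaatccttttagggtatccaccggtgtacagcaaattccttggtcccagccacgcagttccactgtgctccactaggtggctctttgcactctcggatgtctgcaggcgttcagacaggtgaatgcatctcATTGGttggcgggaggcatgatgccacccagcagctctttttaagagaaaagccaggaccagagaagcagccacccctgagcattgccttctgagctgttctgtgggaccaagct
The first Cabp1 window held 2 GC boxes and 1 CCAAT box, none of which overlapped, and the second held neither motif. The Pcp4 window held 1 CCAAT box, as did the Hpca window (not printed). Over 33469 promoter windows of the same length, 37.5% held a CCAAT box and 33.1% a GC box on either strand. The motifs TATAAA, TGACGTCA and CACGTG, searched on both strands and held by 14.2%, 1.83% and 6.42% of all windows, were not found in the windows of Hpca, Cabp1 or Pcp4. A match to letters is a description of the window and not a bound site.

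Hpca, the membrane-moving sensor, had a similar signal in most aged animals. Its lowest, median and highest signals were 273.8, 10167 and 13281 in impaired rats, 7328, 12583 and 15270 in unimpaired rats, and 8915, 11355 and 17286 in B rats. They were 2750, 11431 and 12624 in aged visible rats and 1969, 11408 and 15855 in aged yoked rats, and the 5 aged cage rats had 10861, 10944, 11398, 14005 and 16638. The aged medians thus lay close together, with a few very low arrays in 3 of the 6 groups.

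In young rats the Hpca medians lay below every aged median. The signals of young hidden rats ran from 5181 through a median of 9936 to 16343, and those of young yoked rats from 6056 through 8743 to 13567. The 4 young visible rats had 2378, 6155, 8611 and 12849, and the 3 young cage rats 2633, 2690 and 7618. Each of the 9 lowest Hpca signals, up to 5181, was on an array of low correlation, and across all 79 arrays Hpca had a Spearman correlation of 0.411 with the array's median correlation. Without those arrays, every group mean of Hpca lay between 12.90 (1 young cage array) and 13.67 on the log2 scale.

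**Figure D1:**
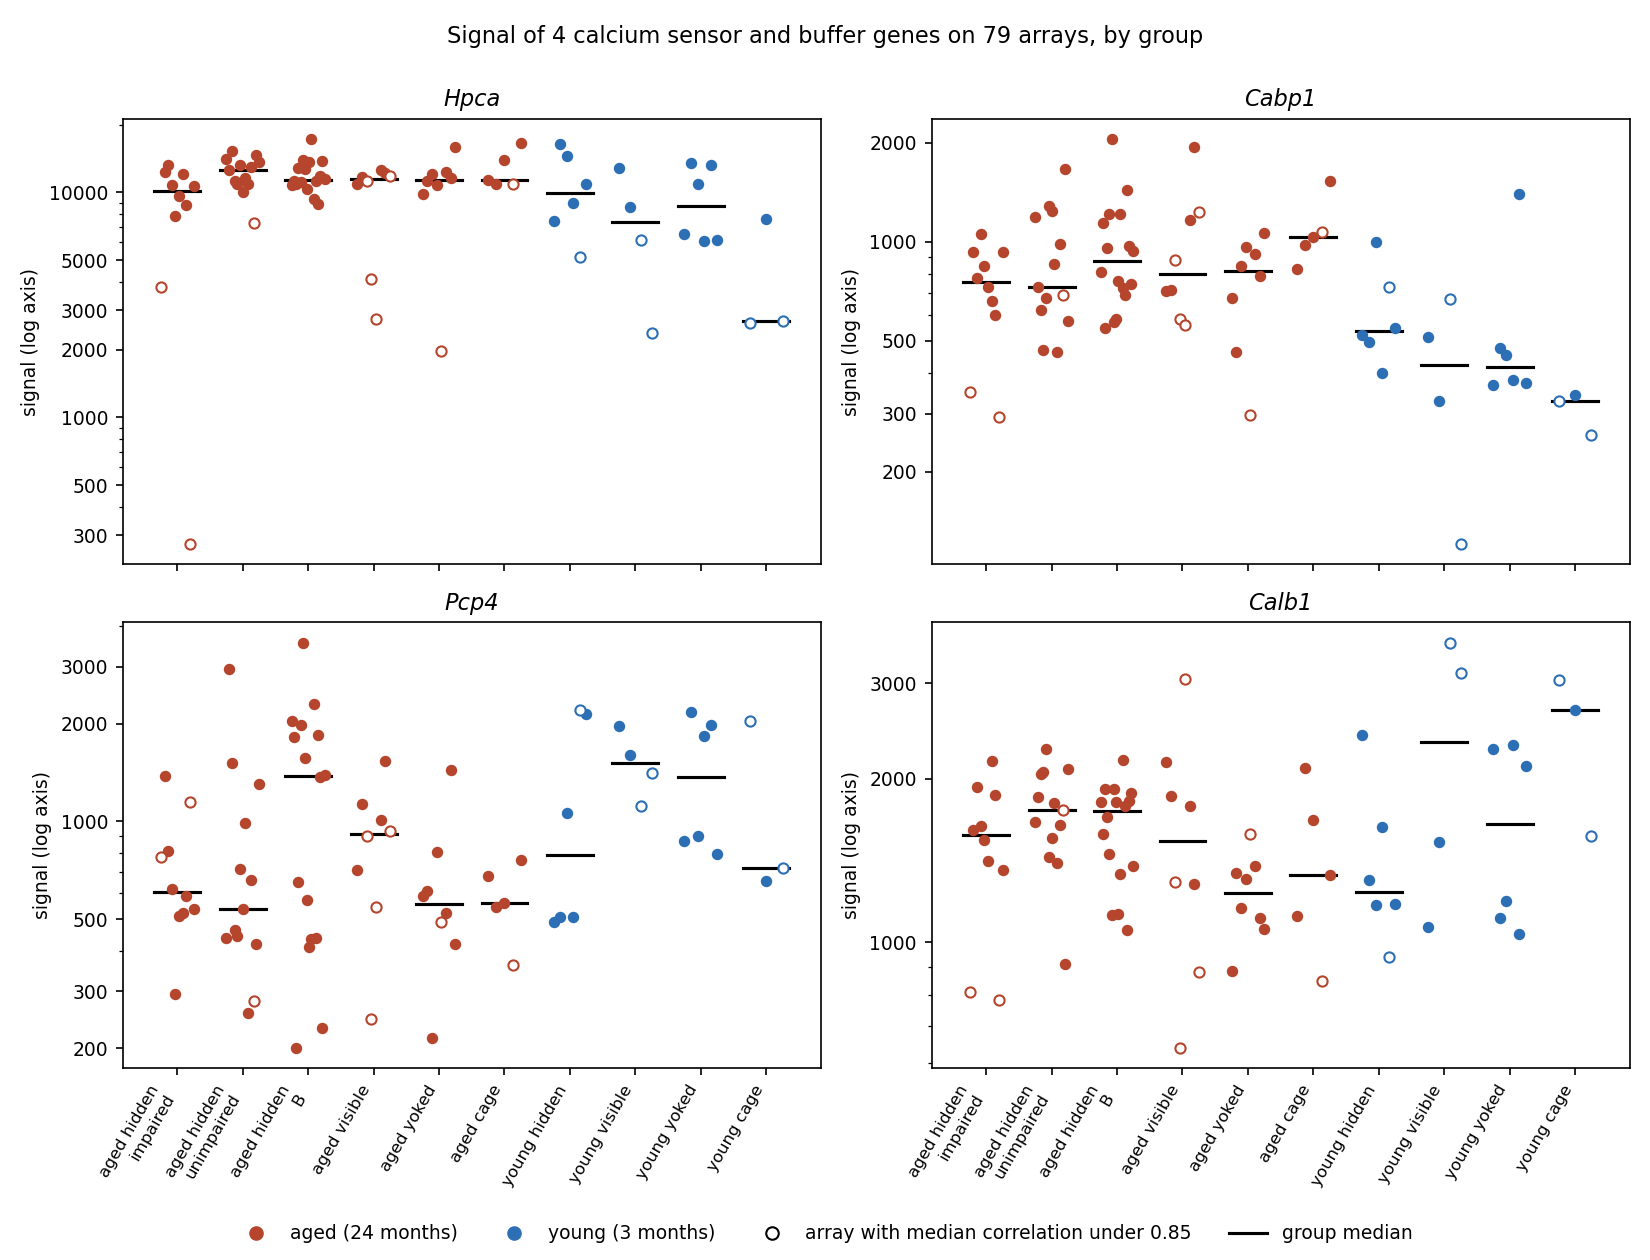
Signal of Hpca, Cabp1, Pcp4 and Calb1 (log axis) on each of 79 arrays, with 1 point per animal, bars for group medians, aged groups in red to the left of young groups in blue, and open points for arrays with a median correlation under 0.85. The aged Cabp1 medians all lie above the young ones, the 16 B arrays of Pcp4 fall on both sides of a gap between 651.1 and 1374, and most of the lowest Hpca points are open.

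Cabp1 by its leading probe set, the one with the higher mean, had a higher median in aged than in young rats of every treatment. Its lowest, median and highest signals were 292.4, 752.3 and 1060 in impaired, 462.0, 726.4 and 1665 in unimpaired and 548.1, 874.0 and 2054 in B rats. They were 560.0, 799.4 and 1936 in aged visible and 298.3, 817.1 and 1067 in aged yoked rats, and the aged cage rats had 827.4, 976.8, 1036, 1070 and 1535. No aged group median lay below 726.4. In young rats the lowest, median and highest were 399.9, 535.2 and 999.8 with the hidden platform and 365.8, 416.6 and 1394 in yoked rats. Young visible rats had 120.5, 327.7, 514.0 and 669.5, and young cage rats 259.0, 328.4 and 342.8. Aged and young signals overlapped in hidden, visible and yoked rats. Of the cage arrays, 2 of 3 young and 1 of 5 aged ones were of low correlation. In young yoked rats 1 array at 1394 stood far above the next, at 474.4. The second Cabp1 probe set also had higher means in aged rats of every treatment, with signals between 20.3 and 636.6 over the 44 aged arrays of the age comparison and between 14.1 and 288.3 over the 19 young arrays.

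Pcp4 varied most among the leading probe sets. Its lowest, median and highest signals were 294.0, 604.9 and 1383 in impaired, 256.1, 538.5 and 2955 in unimpaired, and 200.6, 1382 and 3555 in B rats. They were 246.6, 916.0 and 1538 in aged visible and 215.4, 555.2 and 1439 in aged yoked rats, and the aged cage rats had 362.0, 543.7, 560.0, 680.7 and 760.4. The B rats were of both kinds: 7 had signals from 200.6 to 651.1 and 9 from 1374 to 3555, a gap of 1.06 on the log2 scale, and no B array was of low correlation. In young rats Pcp4 ran from 490.1 through a median of 785.5 to 2212 with the hidden platform and from 791.7 through 1369 to 2177 in yoked rats. The young visible rats had 1115, 1412, 1607 and 1972, and the young cage rats 655.6, 718.1 and 2038. Gaps of about the same size lay inside the young hidden group (508.2 to 1063) and the young yoked group (901.3 to 1837), so the B group was not alone in it. The spread within groups, an SD of 0.91 on the log2 scale, was larger than that of 87.5% of the probe sets tested.

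Calb1, the buffer, was the steadiest of the 4 genes, with an SD within groups of 0.47. That was above the SD of only 9.1% of the probe sets tested. Its lowest, median and highest signals were 784.0, 1577 and 2156 in impaired, 910.7, 1756 and 2273 in unimpaired, and 1055, 1742 and 2165 in B rats. They were 639.2, 1539 and 3052 in aged visible and 884.2, 1231 and 1585 in aged yoked rats, and the aged cage rats had 847.3, 1119, 1332, 1683 and 2092. The aged medians stayed between 1231 and 1756. Young hidden rats ran from 941.3 through 1239 to 2410 and young yoked rats from 1038 through 1652 to 2307. The young visible rats had 1065, 1530, 3137 and 3563, and the young cage rats 1568, 2672 and 3036. The ages overlapped under every treatment, and the young visible arrays at 3137 and 3563 and the young cage array at 3036 were of low correlation.

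Ordered by mean log2 signal, none of the 9 neighbouring pairs among the 10 groups differed by more than the larger of their SDs (of single arrays), for any of the 5 probe sets. The order of Cabp1 put aged cage rats highest, at a mean of 10.08, and young cage rats lowest, at 8.33, with all 6 aged groups above all 4 young ones. The order of Pcp4 ran from 10.56 in young visible rats to 9.17 in aged yoked rats, and the B group, at 9.93, was the 1 aged group among the young ones. Calb1 ran from 11.20 in young cage rats to 10.26 in aged yoked rats, and Hpca from 13.62 in aged cage rats to 11.89 in young cage rats. A limma F test over the 10 groups gave an adjusted p of 0.00106 for the leading Cabp1 probe set. It gave 0.0905 for the second Cabp1 probe set and 0.213 for Calb1. The F test includes the differences of Hpca and Pcp4 taken as known at the choice, so no test is given for these genes. It called 25% of all probe sets, so a single call here is near the background.

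Aged and young rats were compared with treatment as a factor, over 44 aged arrays (B rats left out) and 19 young arrays. Cabp1 rose in aged rats, and Pcp4 was lower. The leading Cabp1 probe set rose by 0.79 ± 0.18, which is 1.73-fold (adjusted p = 0.00441), and lay above the mean of like-treated young rats in 37 of 44 aged rats. The second Cabp1 probe set rose by 0.80 ± 0.24 (35 of 44). Its mean signal was 137.0 over the 44 aged and 72.6 over the 19 young arrays, against a lowest mean kept of 116.9. It passed the filter on mean signal only through the aged arrays, so its difference is a description with no test. Pcp4 differed by -0.81 ± 0.21, or 0.569-fold, and was below the young mean in 36 of 44. The leading Cabp1 probe set thus passed, where 5.13% of all probe sets tested did, 3.2% upward and 1.93% downward. Pcp4 and the second Cabp1 probe set are not counted. Since the genes were chosen with results of this comparison known, the adjusted p of Cabp1 may also be affected by the choice. Nothing is read from the share.

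Hpca and Calb1 did not pass. Hpca differed by 0.34 ± 0.27 (adjusted p = 0.498), above the young mean in 35 of 44 aged rats, and Calb1 by -0.25 ± 0.15 (adjusted p = 0.36), with 22 of 44 on either side. The Cabp1 call was kept without the arrays of low correlation (0.77, adjusted p = 0.00158). It was lost without the cage arrays, an alternative chosen after seeing the data (0.63, adjusted p = 0.112), under quantile normalization (0.79, adjusted p = 0.0525) and under median centring (0.78, adjusted p = 0.0654). The difference of Pcp4, a description, was -0.61 without the arrays of low correlation, -0.82 without the cage arrays, -0.86 under quantile normalization and -0.83 under median centring.

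Marker signals and the array controls stand beside these differences, none of them tested by age and all with ranges that overlapped between the ages. Across 79 arrays Cabp1 had a Spearman correlation of 0.502 with the 3' to 5' ratio of the actin and GAPDH controls (log2), a measure of RNA and amplification, which was 3.06 ± 1.14 in aged and 2.72 ± 1.26 in young rats (SD, n = 44 and 19). With that ratio as a covariate Cabp1 differed by 0.70 ± 0.15 (adjusted p = 0.00124), against 0.79 without it. Over all probe sets the covariate gave 323 calls against 269. The summed signal of 7 astrocyte markers on the array, of 9 listed, ran from 4008 to 36925 with a median of 22467 in aged rats, and from 2026 to 24591 with a median of 15372 in young rats. The correlation of Cabp1 with the mean of these markers was 0.509, and with 5 CA1 markers 0.559. Both ages and all groups are pooled in these correlations, so they include the age difference itself. Gja1 of the astrocyte markers, at a mean signal of 46.7, lay below the filter, like Camk2a and Slc17a7 of the CA1 markers. The part of astrocyte RNA in the Cabp1 difference was not tested.

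Pcp4 is a known marker of CA2, the field next to CA1, in mice. The summed signal of the 4 CA2 markers on the array (Ptpn5, Rgs14, Ntf3 and Fgf2, of 9 listed) ran from 2576 to 6812 with a median of 5281 in aged rats, and from 3595 to 8819 with a median of 6358 in young rats. That of 5 CA3 markers had medians of 4607 in aged (2936 to 8436) and 5554 in young rats (3216 to 18375). The correlation of Pcp4 across 79 arrays was 0.301 with the mean of the CA2 markers and 0.279 with that of the CA3 markers, or 0.448 and 0.383 without the arrays of low correlation. It was -0.26 with the mean of the CA1 markers and -0.29 with that of the astrocyte markers, or -0.301 and -0.23 without those arrays. Here too both ages and all groups are pooled, so the age difference is included. Grik1 of the CA3 markers, at a mean signal of 73.2, lay below the filter. The part of neighbouring fields in the Pcp4 difference was not tested.

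**Figure D2:**
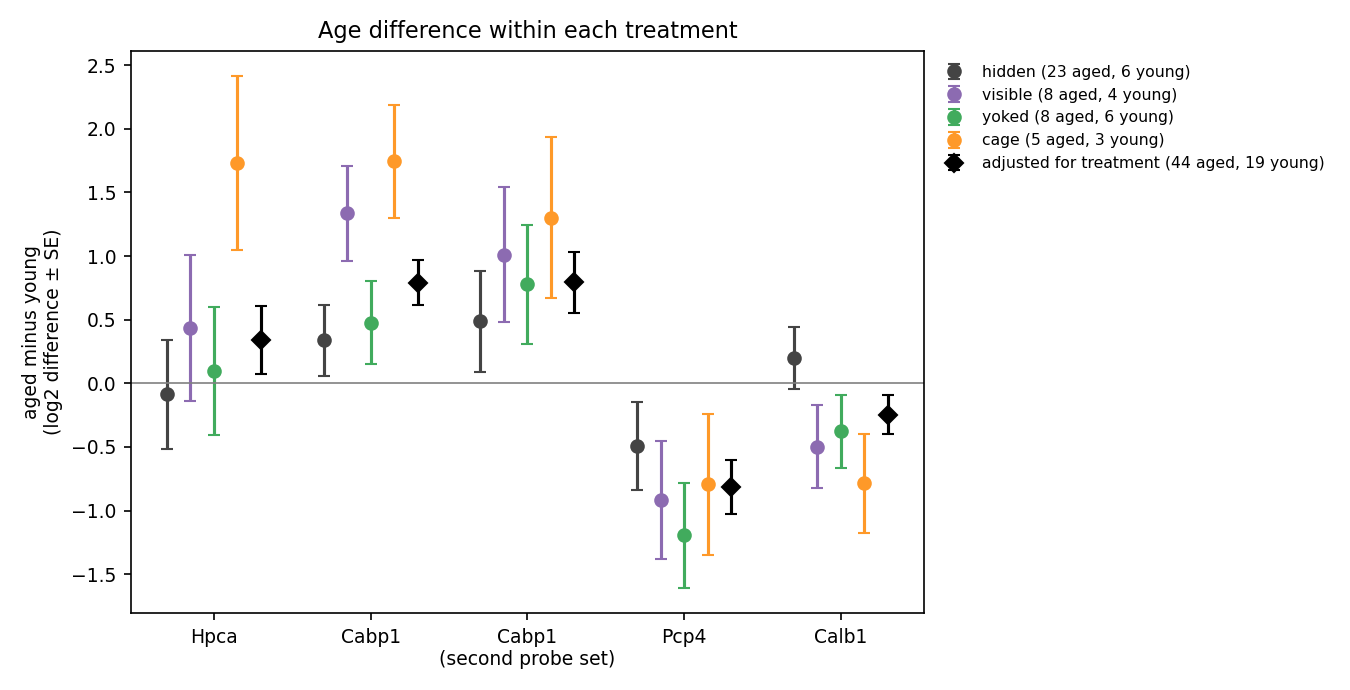
Aged minus young difference (log2, points with SE bars) of each probe set within hidden, visible, yoked and cage rats and, as black diamonds, adjusted for treatment. The B rats are left out. Both Cabp1 probe sets are above 0 and Pcp4 is below 0 under all 4 treatments, and the cage point of Hpca, at 1.73, stands away from its other 3.

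The age difference was also taken within each treatment. For Cabp1 it was 0.34 ± 0.28 in hidden, 1.34 ± 0.37 in visible, 0.48 ± 0.33 in yoked and 1.74 ± 0.44 in cage rats. For its second probe set the values were 0.49, 1.01, 0.78 and 1.30, and for Pcp4 they were -0.49 ± 0.35, -0.92 ± 0.47, -1.19 ± 0.41 and -0.79 ± 0.55 in the same order. With the B rats left out, the direction was thus the same under all 4 treatments for both genes. The size was smallest in hidden platform rats for all 3 probe sets. The Pcp4 mean of the B rats, 9.93, lay above that of young hidden rats, 9.89, opposite to the other aged hidden rats. Their Cabp1 mean, 9.84, also lay above that of young hidden rats, 9.24. Hpca differed by -0.08 ± 0.43, 0.44 ± 0.57, 0.09 ± 0.50 and 1.73 ± 0.68, so that its age difference stood mainly in the cage rats, of which 2 of 3 young and 1 of 5 aged arrays were of low correlation. Calb1 was higher in aged hidden rats (0.20 ± 0.24) and lower in aged visible (-0.50 ± 0.32), yoked (-0.38 ± 0.29) and cage rats (-0.79 ± 0.39).

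A test of whether the age difference depended on treatment called 0.305% of all probe sets and none of the 5 here. The adjusted p was 0.249 for Cabp1, 0.492 for Calb1, 0.544 for Hpca, 0.856 for Pcp4 and 0.882 for the second Cabp1 probe set. With array quality weights 3 of the 4 genes passed (Hpca, Pcp4 and Calb1), where the weights called 1850 of all probe sets against 16 without them.

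Learning was the labelled difference between the 10 impaired and 13 unimpaired rats, both trained to the hidden platform. Hpca differed by -0.85 ± 0.40, with 7 of 10 impaired rats below the unimpaired mean. Without impaired array 83, whose signal was 273.8 and whose median correlation was the lowest of all, the value was -0.35 ± 0.27, and without the arrays of low correlation it was -0.25. Cabp1 differed by -0.28 ± 0.24 (adjusted p = 0.548), Calb1 by -0.23 ± 0.21 (0.577) and Pcp4 by 0.01 ± 0.32 (0.988). The second Cabp1 probe set differed in the other direction, by 0.15 ± 0.35 (adjusted p = 0.835). No probe set of Cabp1, Calb1 or Pcp4 passed, the Hpca value being a description. Over all probe sets limma called 0%, while 677 had an unadjusted p under 0.05.

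B rats were set against both of these groups over all 60 aged arrays. Against impaired rats Hpca differed by 0.83 ± 0.34. The same impaired arrays gave the Hpca difference taken as known at the choice, so this is a description with no test. All 16 B rats lay above the impaired mean, which impaired array 83 lowered, while B arrays 86 and 46, at 8915 and 9347, lay below the impaired median of 10167. The Hpca difference was 0.33 without array 83 and 0.17 without the arrays of low correlation. Cabp1 differed by 0.42 ± 0.22 (adjusted p = 0.183), Pcp4 by 0.52 ± 0.36 (0.299) and Calb1 by 0.13 ± 0.18 (0.624). The second Cabp1 probe set differed in the other direction, by -0.39 ± 0.33 (adjusted p = 0.4). No probe set of Cabp1, Pcp4 or Calb1 passed, where 12% of all did, 5.8% upward and 6.2% downward. Against unimpaired rats Pcp4 had the largest difference of the 4 genes, 0.54 ± 0.33 (adjusted p = 0.827), with 9 of 16 B rats above the unimpaired mean. The others were -0.02 for Hpca, 0.14 for Cabp1 (-0.25 by its second probe set) and -0.09 for Calb1. This comparison called 0.0572% of all probe sets, 0.0381% upward and 0.0191% downward, and no member.

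**Figure D3:**
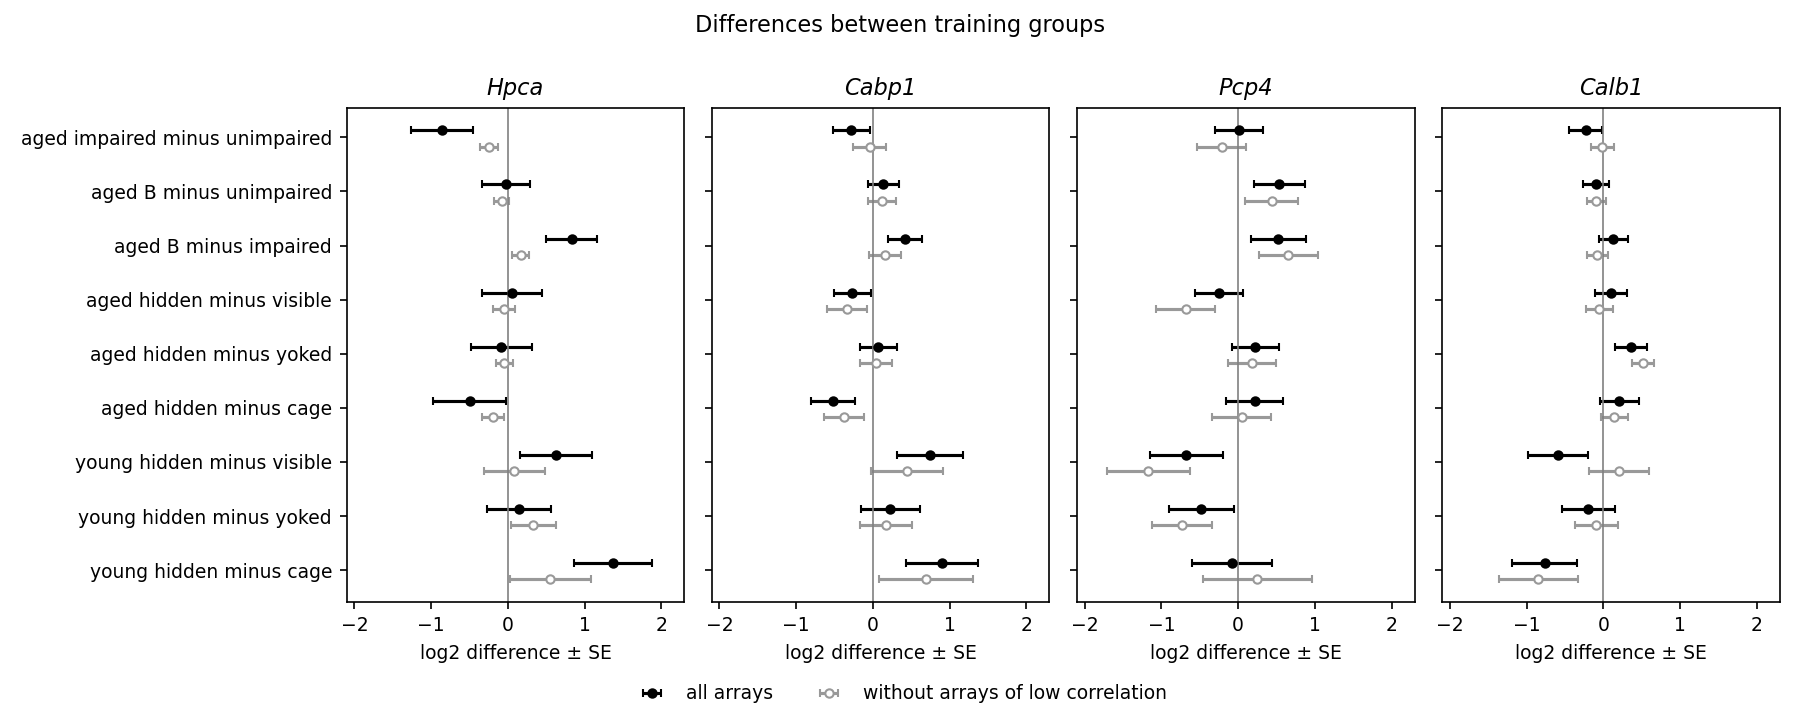
Log2 difference with SE bars of each gene's leading probe set in 9 comparisons between training groups, in black over all arrays and in grey without the 14 arrays of low correlation. The black Hpca points for impaired minus unimpaired (-0.85), B minus impaired (0.83) and young hidden minus cage (1.38) lie farther from 0 than the grey ones.

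Hidden platform rats were compared with each control group within an age. In aged rats the largest differences of the leading probe sets against visible, yoked and cage rats were those of Calb1 against yoked rats and of Hpca and Cabp1 against cage rats. Calb1 was 0.36 ± 0.21 higher than in yoked rats (adjusted p = 0.999) and above the yoked mean in 20 of 23 hidden rats, and without the arrays of low correlation it was 0.52 higher (adjusted p = 0.473). Against cage rats Cabp1 differed by -0.52 ± 0.29 (adjusted p = 0.655) and Hpca by -0.50 ± 0.47 (0.875). Against visible rats Cabp1 differed by -0.27 ± 0.24 (adjusted p = 0.69) and Pcp4 by -0.25 ± 0.31 (0.786). The second Cabp1 probe set differed in the other direction, by 0.35 ± 0.34 (adjusted p = 0.722). No member passed in these comparisons, which called 0.0191% of all probe sets against visible rats, 0% against yoked rats (155 at an unadjusted p under 0.05) and 0% against cage rats (449).

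In young rats hidden platform training was set against the same controls over 19 arrays. Against cage rats Hpca differed by 1.38 ± 0.51, or 2.59-fold, without passing (adjusted p = 0.0999), and all 6 hidden rats lay above the cage mean. It passed without young cage array 74, the 1 young cage array not of low correlation (1.88, adjusted p = 0.0363). Without the arrays of low correlation, which left 5 hidden arrays and 1 cage array, the difference was 0.55 (adjusted p = 0.747). Cabp1 differed by 0.90 ± 0.47 (adjusted p = 0.247), also with 6 of 6 above the cage mean, Calb1 differed by -0.76 ± 0.42 (0.278) and Pcp4 by -0.08 ± 0.52 (0.928). No member passed, where 5.28% of all probe sets did, 4.35% upward and 0.934% downward. Against visible and yoked rats 0% of all probe sets were called, no member among them, while 274 and 93 had an unadjusted p under 0.05. The differences against visible rats were 0.63 ± 0.46 for Hpca, 0.75 ± 0.43 for Cabp1, -0.67 ± 0.48 for Pcp4 and -0.59 ± 0.39 for Calb1.

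The 4 genes were also compared with each other within groups, as deviations from the group mean, in 6 pairs with 100000 random permutations within groups. Hpca and Cabp1, both sensors, varied together, with Pearson's r of 0.559 (1e-05, the smallest p the permutations can give, adjusted 6e-05) and a rho of 0.462 (adjusted p = 0.00024) over 79 arrays. Without the 2 arrays farthest from the median of Hpca r was 0.503, and without the arrays of low correlation r was 0.409 (adjusted p = 0.00348) and rho 0.386 (0.00828) over 65 arrays. Cabp1 and Calb1 varied in opposite directions, with r = -0.262 (p = 0.046, adjusted 0.092) and rho = -0.351 (p = 0.00259, adjusted 0.00777) over 79 arrays, r = -0.173 without the 2 farthest arrays, and r = -0.607 and rho = -0.58 (both adjusted p = 6e-05) over 65 arrays. Hpca and Calb1 had r = 0.026 (adjusted p = 0.962) and rho = -0.203 (0.156) over 79 arrays, but r = -0.473 (0.00562) and rho = -0.38 (0.0159) over 65. All these pairs share the quality of the arrays, and the Spearman correlation with the 3' to 5' ratio was 0.353 for Hpca, 0.502 for Cabp1 and -0.259 for Calb1. With the ratio as a covariate, an alternative chosen after seeing the data, Hpca and Cabp1 had r = 0.227 (adjusted p = 0.177) and rho = 0.387 (0.00816) over 79 arrays, and r = 0.386 (0.00918) and rho = 0.365 (0.0195) over 65. Cabp1 and Calb1 then had r = -0.179 (adjusted p = 0.19) and rho = -0.244 (0.142) over 79 arrays, and r = -0.584 (6e-05) and rho = -0.565 (0.00018) over 65. Hpca and Calb1 had r = 0.256 (adjusted p = 0.177) over 79 arrays and r = -0.455 (0.00663) over 65 with that covariate. The 3 pairs with Pcp4 had r between -0.078 and 0.242 over 79 arrays, and none passed after adjustment.

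**Figure D4:**
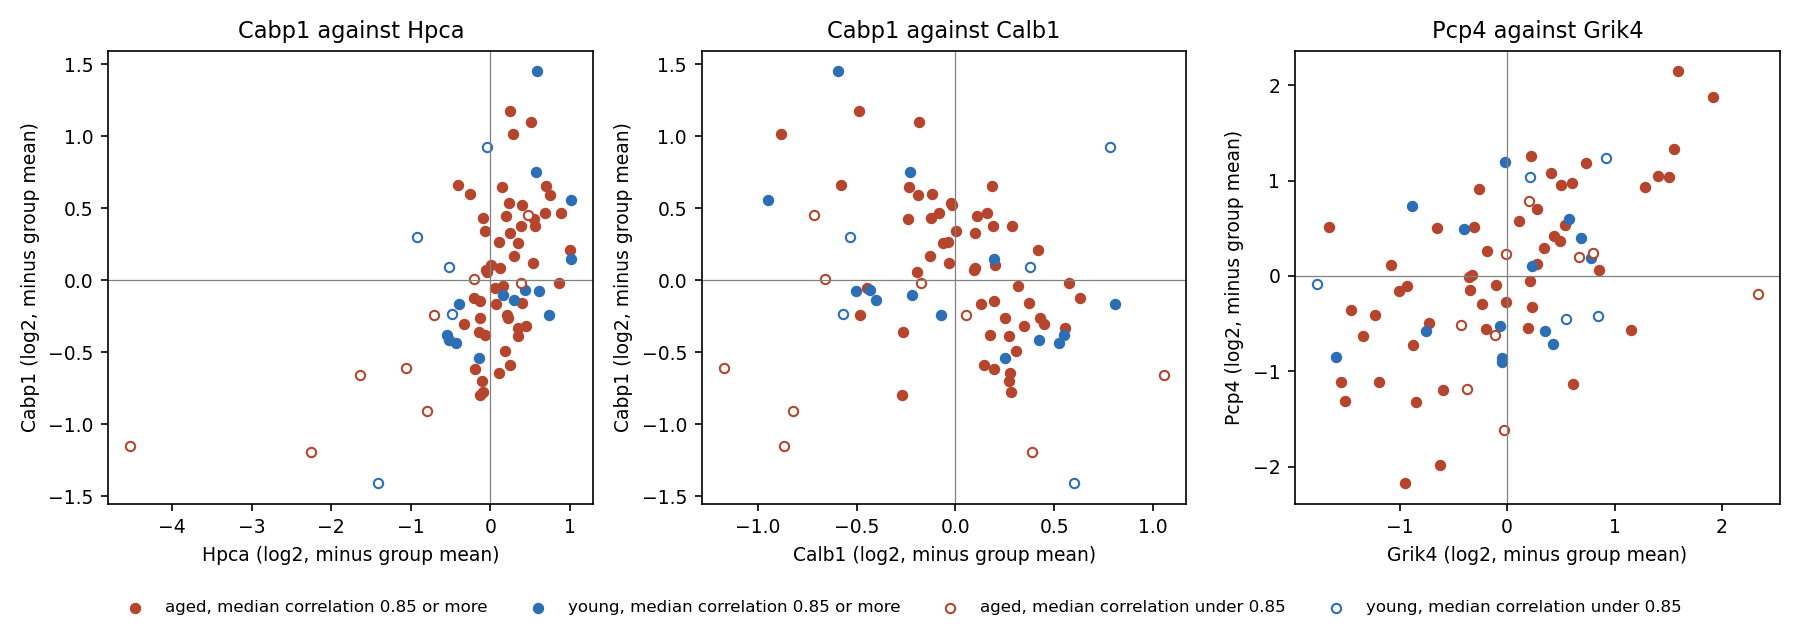
Deviations from the group mean (log2) of Cabp1 against Hpca, of Cabp1 against Calb1 and of Pcp4 against Grik4, with 1 point per array, aged in red and young in blue, and open points for arrays of low correlation. The Hpca and Grik4 panels slope upward, and the filled points of the Calb1 panel slope downward.

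The genes whose signal ran most like each member were ranked by Spearman's rho over 79 arrays, among 3232 genes, as a description without a test. The genes nearest Hpca were Map2k2, a kinase of the ERK cascade (0.732), Pebp1, an inhibitor of that cascade (0.731), and Dapk3 (0.719). Nearest Cabp1 were Kcnab2, a potassium channel beta subunit (0.78), Tle5, a transcriptional corepressor (0.762), and Spock2, an extracellular proteoglycan (0.76). Nearest Pcp4 were Grik4, a kainate receptor subunit and 1 of the CA3 markers above (0.541, and 0.624 without the arrays of low correlation), Marcks (0.499) and Bdnf, a neurotrophin (0.473). Nearest Calb1 were Gria2, the AMPA receptor subunit GluA2 (0.716), Tbc1d23 (0.71) and Pde4b, a cyclic AMP phosphodiesterase (0.676). The arrays share scaling and RNA quality, which all such values include. Group means were not taken out, so the values also include differences between ages and groups.

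Other genes of calcium handling, besides the 4 members, were read from 6 lists with 55 genes tested, which were chosen with results of these data known and not tested for enrichment. In aged minus young rats 2 of 6 small calmodulin-binding proteins fell and 0 rose: Gap43, a growth cone protein, by 0.70 ± 0.16 (adjusted p = 0.00441) and Marcks, a membrane-bound kinase substrate, by 0.57 ± 0.17 (0.0389). Over all probe sets 1.93% fell and 3.2% rose. Without the arrays of low correlation Gap43 differed by -0.73 (adjusted p = 0.000747) and Marcks by -0.39 (0.121), no longer past the threshold. These 2 genes bind calmodulin as Pcp4 does, and Marcks was also among the genes nearest Pcp4. That rank was taken over arrays of both ages, so it includes the age difference of both genes and is not separate from it. By limma, 0 of 4 EF-hand sensors, 0 of 10 calcium buffers, 0 of 13 calmodulin-regulated enzymes, 0 of 11 pumps, exchangers and release channels and 0 of 11 voltage-gated calcium channel subunits passed. The median difference was -0.06 for the small calmodulin-binding proteins, 0.03 for the sensors, -0.15 for the buffers, 0.07 for the enzymes, -0.0024 for the pumps and -0.13 for the channels, against -0.05 over all probe sets.

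Genes of these lists also passed in B minus impaired rats, where 5.8% of all probe sets rose and 6.2% fell, and in young hidden minus cage rats, where 4.35% rose and 0.934% fell. In B minus impaired rats 3 of 11 pumps, exchangers and release channels rose and 0 fell: the plasma membrane pumps Atp2b3 (0.89 ± 0.20, adjusted p = 0.0037) and Atp2b2 (0.68 ± 0.22, 0.0334) and the sodium-calcium exchanger Slc8a1 (0.99 ± 0.23, 0.00522). The channel subunit Cacnb2 (1.14 ± 0.24, adjusted p = 0.00244), the kinase-like Camkv (0.96 ± 0.33, 0.0433) and the reticulum protein Rcn2 (0.67 ± 0.23, 0.0433) rose as well, each the 1 gene of its list. Of the arrays behind these values 0 of 16 B and 2 of 10 impaired arrays were of low correlation, with median correlations of 0.445 and 0.223. Without the arrays of low correlation the differences were 0.62 for Atp2b3, 0.46 for Atp2b2, 0.80 for Slc8a1, 0.62 for Cacnb2 and 0.55 for Camkv, with adjusted p between 0.00874 and 0.0429, and 0.62 for Rcn2, which no longer passed (adjusted p = 0.0513). In young hidden minus cage rats Atp2b1, a plasma membrane pump (2.52 ± 0.67, adjusted p = 0.0357), and Slc24a2, a sodium-calcium-potassium exchanger (2.60 ± 0.62, 0.0241), rose. So did calreticulin, Calr, the main calcium store protein of the endoplasmic reticulum (2.52 ± 0.58, 0.0201), and Itpka, an inositol trisphosphate kinase of dendritic spines (3.75 ± 1.02, 0.0383). Of the 3 young cage arrays behind these last 4 values 2 were of low correlation, as was 1 of 6 young hidden arrays. Without them Calr differed by 3.32 ± 0.58 (adjusted p = 0.0324), while Atp2b1 (1.58, adjusted p = 0.203), Slc24a2 (2.02, 0.294) and Itpka (1.15, 0.485) did not pass, with 1 young cage array left, assumed to vary like the other groups.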

How the data were processed

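The deposited values are intensities, on a linear scale, that the authors computed with MAS5, as the submitters' processing notes record. Trimmed of the highest and lowest 2%, array means lay between 499.3 and 500.0. No build or probe sequence is given in the sources used here. Groups came from the sample titles. The 59 controls and the 40% of other probe sets with the lowest mean were left out, and log2(signal + 15) of 5244 probe sets went into lmFit and eBayes with trend of limma 3.58.1 (R 4.3.3). A fold on the log2(signal + 15) scale understates changes of dim probe sets. Fits within aged rats used 44 arrays, with B rats 60, within young rats 19, and for age 63 with treatment as a factor. Correlations used scipy 1.17.1. Genes were named by a rule: the 4 genes, per calcium list and comparison up to 4 called genes by smallest p, and the 3 genes nearest each member. The members, lists and tests were chosen with earlier results of these data known. The fits were tested on simulated data. Alternatives changed the pseudocount, filter, scaling, array weights, covariate, block and samples. Each title number is a separate animal.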

Additional observations from a re-analysis of the deposited data

Results flagged for a closer look

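The 5 probe sets were each examined in the 7 groups of 4 to 10 arrays, which gave 35 cases that share arrays. In 4 of them, on 3 arrays, 1 array lay far from the nearest of the others by Dixon's criterion, which chance meets in about 1 in 20 independent groups. Hpca was 273.8 on impaired array 83, against 3816 for the next lowest impaired array. It was 1968.5 on aged yoked array 63, where the next lowest was 9816. Both are arrays of low correlation, with median correlations of 0.223 and 0.642. The second Cabp1 probe set was 636.6 on the same impaired array 83, the highest of its group, with 187.8 next, while the leading Cabp1 probe set was lowest there, at 292.4. The leading Cabp1 probe set was 1393.9 on young yoked array 59, against 474.4 for the next, on an array with a median correlation of 0.919.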

How the results depend on the processing

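Over the alternatives that did not leave out a single array, 435 of 480 fitted values of the 4 genes kept their direction and their side of the threshold, 6 lost a call, 9 gained one and 30 changed sign, all 30 being values that passed no test. The lost and gained calls include values of Hpca and Pcp4 that are descriptions here. Leaving out 1 array at a time kept 2200 of 2232 values. In the age comparison Cabp1 lost its call under quantile normalization, under median centring and without the cage arrays (chosen after seeing the data). It kept the call without the arrays of low correlation and without any single array of the 63. Pcp4, taken as known at the choice, is not counted. Counted as leading probe sets under the threshold, array quality weights gave 3 for the interaction against 0 and 1 for young hidden minus cage against 0. The weights also gave Calb1 a call in any of 10 groups, where Hpca and Pcp4 are not counted. Median centring gave Cabp1 a call in B minus impaired, where it moved every difference by 0.386. It moved those of impaired minus unimpaired by -0.328, of young hidden minus cage by 0.162, of aged hidden minus visible by 0.156, of young hidden minus yoked by -0.155 and of aged hidden minus cage by -0.115. Without 1 array the count for any of 10 groups was 1 to 2 (2 without impaired array 83, aged yoked array 63 or young cage array 74) and for young hidden minus cage 0 to 1 (1 without young cage array 74). The cause of these changes was not tested.

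The signs that changed in the fits were these. With array quality weights, Calb1 was 0.024 in aged minus young, 0.0019 in impaired minus unimpaired, -0.095 in aged hidden minus visible, -0.032 in B minus impaired, 0.081 in young hidden minus visible and 0.15 in young hidden minus yoked. With the weights Pcp4 was -0.13 in impaired minus unimpaired, Hpca 0.0099 in aged hidden minus yoked and Cabp1 -0.0059 in B minus unimpaired. Without the arrays of low correlation, Pcp4 was -0.22 in impaired minus unimpaired and 0.25 in young hidden minus cage, Hpca -0.046 and Calb1 -0.051 in aged hidden minus visible, and Calb1 -0.078 in B minus impaired and 0.21 in young hidden minus visible. Under median centring, Pcp4 was -0.32 in impaired minus unimpaired and 0.078 in young hidden minus cage, and Hpca 0.036 in B minus unimpaired and -0.0049 in young hidden minus yoked. Under quantile normalization, Hpca was -0.065 in aged hidden minus visible and 0.27 in B minus unimpaired, and Pcp4 0.010 in young hidden minus cage. With the 3' to 5' covariate, Hpca was -0.35 in aged hidden minus visible, 0.11 in B minus unimpaired and -0.020 in young hidden minus yoked, and Cabp1 -0.046 in aged hidden minus yoked. With animal numbers in 4 ranges as a block, young hidden minus yoked was -0.39 for Hpca, -0.37 for Cabp1 and 0.29 for Calb1. A pseudocount of 60 gave -1.2e-05 for Pcp4 in impaired minus unimpaired. Without 1 array, the range was -0.11 to 0.19 for Pcp4 in impaired minus unimpaired, -0.18 to 0.31 for Hpca and -0.071 to 0.25 for Calb1 in aged hidden minus visible, -0.41 to 0.17 for Hpca and -0.099 to 0.16 for Cabp1 in aged hidden minus yoked, -0.081 to 0.0070 for Hpca in B minus unimpaired, and -0.38 to 0.43 for Pcp4 in young hidden minus cage. Among the 6 pairs of genes within groups, alternatives chosen after seeing the data changed the sign of r for Hpca and Pcp4 to -0.168 with the 3' to 5' covariate, and for Hpca and Calb1 to -0.473 without the arrays of low correlation and -0.455 with both changes.

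Over all probe sets the calls for age were 34 to 1134 against 269, for the interaction 0 to 1850 against 16, for any of 10 groups 759 to 3921 against 1313, for B minus impaired 417 to 1864 against 629, for B minus unimpaired 1 to 436 against 3 and for young hidden minus cage 0 to 1484 against 277. They reached 513 for aged hidden minus visible (1), 118 for aged hidden minus cage (0), 8 for aged hidden minus yoked (0) and 22 for young hidden minus visible (0), with array quality weights in each case. No paired analysis was possible because no animal number occurs in more than 1 group and the titles name no partner for the yoked rats.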
